A study of Homo sapiens with 2 samples.

Results

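The genes described here act in mitosis, the stage at which a cell divides its copied chromosomes between daughter cells. A list of 42 was set by symbol: cyclins and kinases of mitotic entry, spindle motors, kinetochore and checkpoint proteins, and the machinery of anaphase and cytokinesis. Of these, 40 had a probe named for them, among 12445 named genes in all, and 4 of the 40 stood under an older symbol (CDC2 for CDK1, DLG7 for DLGAP5, KNTC2 for NDC80 and CDCA1 for NUF2). CENPF and TOP2A had no probe named for them and were not analysed here. ANLN had a value on the transfection array alone and ASPM on the depletion array alone, so each array measured 39 members and 38 were measured on both.

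The study asked how gene expression in mesothelioma cells depends on CD26, the cell surface peptidase encoded by DPP4. One two-colour array set ACC-MESO1 cells transfected to deplete CD26 against control ACC-MESO1 cells. The other set MSTO-211H cells carrying transfected CD26, in the retroviral vector pLNCX2, against their own control cells. Both are established human lines of mesothelioma. The depleting agent appears in the labels as siRNA and also as shRNA, and the treatment of the controls and whether cells were clones or pools are not stated there. Every value below is a log2 ratio of manipulated over control cells from a single array, so no difference has a replicate check and precision is limited by having 1 array a comparison. Control RNA carried Cy5 and manipulated RNA carried Cy3 on both arrays with no dye swap, so a dye effect and a change of the same sign on both arrays cannot be told apart. For DPP4 itself the ratio was -3.92 in depleted and 5.51 in transfected cells, in the direction of the labels.

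Entry into mitosis is driven by the kinase CDK1 bound to cyclin A or B. The separation of chromosomes waits on the spindle checkpoint, which holds back an E3 ubiquitin ligase, the anaphase-promoting complex, until each kinetochore is attached to the spindle. Most of these genes are transcribed late in the cell cycle, under the MuvB complex with B-MYB and FOXM1, so their RNA tracks the share of cells in G2 and mitosis. In bulk RNA, fewer cells in those phases and less RNA per cell cannot be told apart, and the arrays give ratios, not levels, so neither the phase distribution nor the mesothelial identity of the cells could be read from them.

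In CD26-depleted ACC-MESO1 cells, PTTG1, the securin that restrains the chromosome-separating protease, was 2.14-fold lower than in control cells (log2 ratio -1.10), and it was the member past 2-fold. With ribosomal protein genes as the centre PTTG1 lay at -0.77, and no member was 2-fold lower, beside 0.416% of all genes. In the other direction UBE2C was past 2-fold at 1.01, beside 7.64% of all genes. As deposited, next lowest were BIRC5, which encodes survivin, at -0.82, the kinesin gene KIF14 at -0.75, the spindle gene DLGAP5 at -0.74, and the B-type cyclins CCNB1 at -0.69 and CCNB2 at -0.67. At the other end lay UBE2C, the ubiquitin-conjugating enzyme of the anaphase-promoting complex, at 0.68, and the Aurora B kinase gene AURKB at 0.43. The median over the 39 measured members was -0.16, beside 0.01 over all 10347 genes, and it lay at 0.16, beside 0.34 for all genes, with ribosomal protein genes as the centre, a step that moves every gene up by 0.33. The members' median was 0.18 below that of all genes, a gap that a shift of every gene alike cannot change.

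At a ratio of 2-fold, 1 of 39 members was lower, a share of 2.56% beside 1.56% of all genes. At 2-fold higher there was no member, beside 3.31% of all genes. At the smaller size of log2 0.5, which is 1.41-fold, 12 of 39 members were lower (30.8%), beside 9.8% of all genes, and 1 was higher (2.56%), beside 12.8% of all genes. Centred on ribosomal protein genes, 1 member was at least log2 0.5 lower, beside 2.95% of all genes, and 8 were higher, beside 33.4%. Below 0 lay 25 of 39 members, or 64.1%, beside 48.7% of all genes (with ribosomal centring 15, beside 17.8%). Past log2 1.5 there was no member on the lower side, beside 0.213% of all genes, or on the higher side, beside 1.21%. These counts describe a single pair of RNA samples, and genes of a co-transcribed list are not independent of each other.

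In CD26-transfected MSTO-211H cells the same genes lay near 0 as deposited. Their median was 0.03, beside 0.01 over all 9359 genes measured there (-0.01 and -0.03 when centred on the mean), and no member was past 2-fold in either direction, beside 4.09% of all genes higher and 1.37% lower. ANLN, the cytokinesis scaffold anillin, was highest at 0.89 (1.85-fold), followed by DLGAP5 at 0.60 and the kinetochore gene NUF2 at 0.51. Centred on ribosomal protein genes, the median was 0.25, 1 member was 2-fold higher (beside 6.84% of all genes), 11 of 39 were at least log2 0.5 higher (beside 25.1%) and 3 were below 0 (beside 26.4%). TPX2, the activator of Aurora A on the spindle, was lowest at -0.36. At least log2 0.5 higher were 3 of 39, beside 13.1% of all genes, and at least log2 0.5 lower there was none, beside 9.4%. Past log2 1.5 no member was higher, beside 1.51% of all genes, or lower, beside 0.235%. Below 0 lay 17 of 39, beside 49.3% of all genes. The SD over members was 0.27 on this array and 0.40 on the depletion array, beside 0.50 and 0.48 over all named genes.

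**Figure D1:**
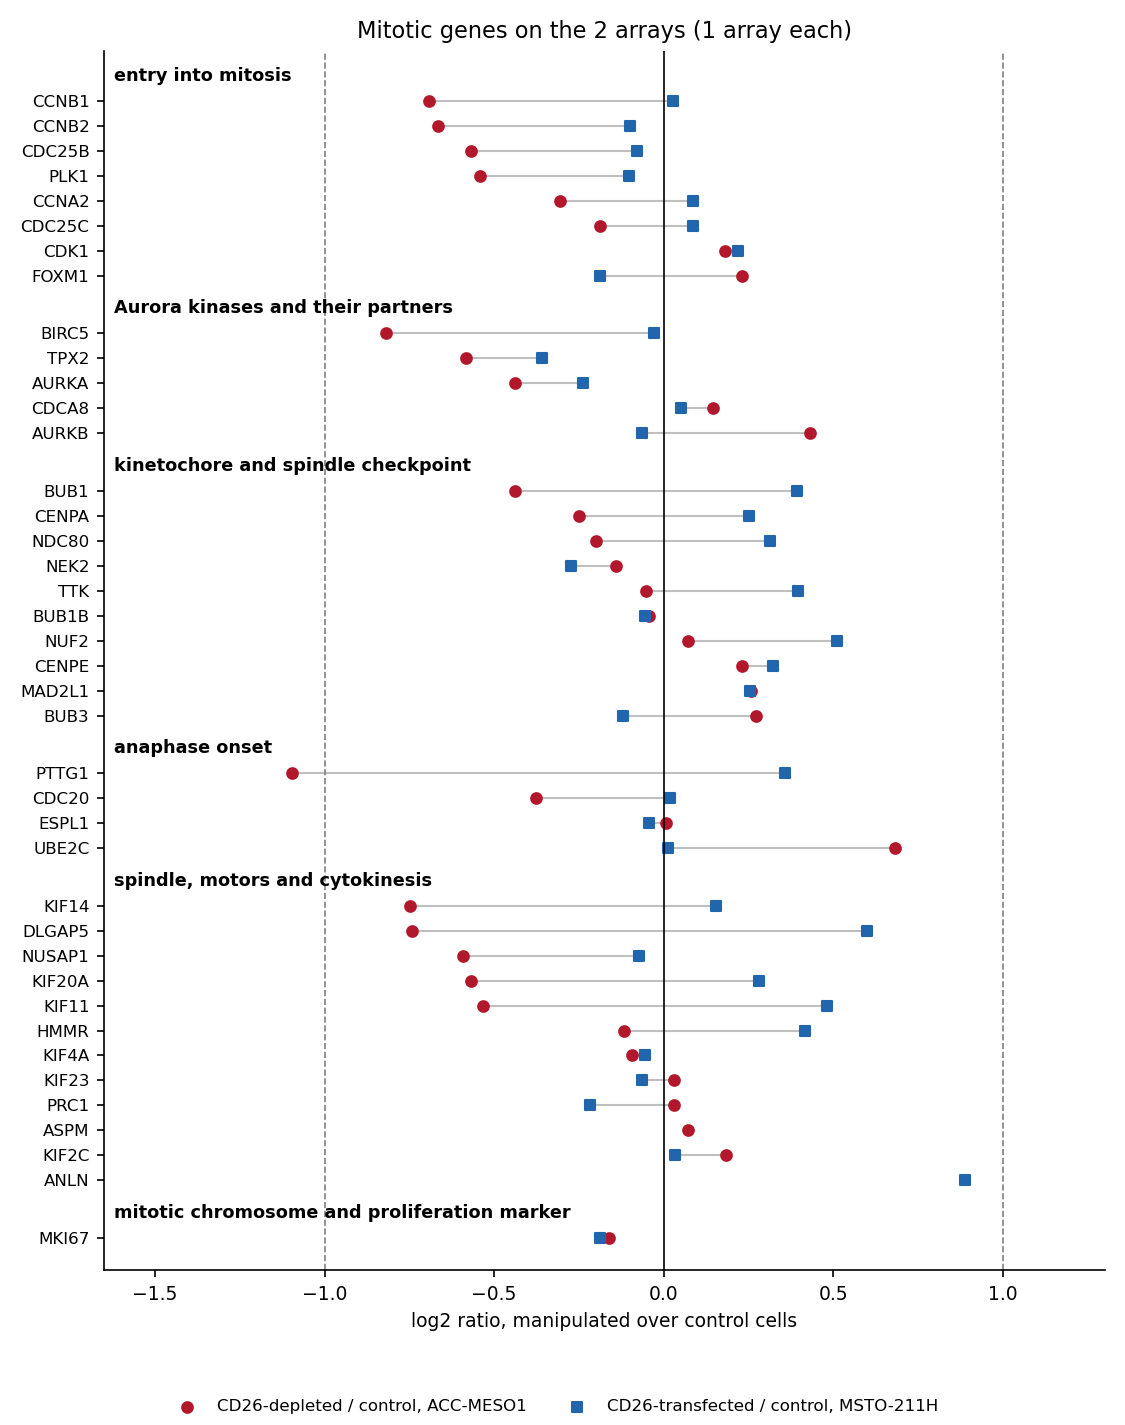
Log2 ratios of the 40 members with a named probe, grouped by role, with CD26-depleted over control ACC-MESO1 cells as red circles and CD26-transfected over control MSTO-211H cells as blue squares (1 array each, so no error bars). Grey lines join the values of a gene and dashed lines mark 2-fold; PTTG1 at -1.10 is the point past them, and the transfection values lie between -0.36 and 0.89 as deposited.

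**Figure D2:**
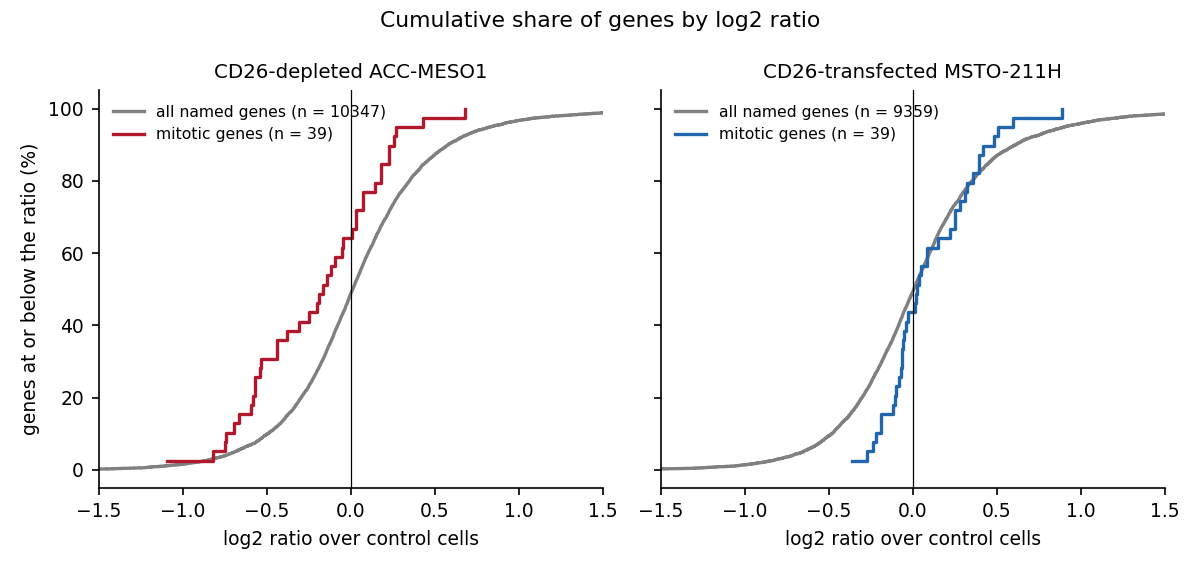
Percentage of genes at or below each log2 ratio, for the 39 members measured on an array (coloured) and for all named genes (grey; 10347 and 9359 genes). As deposited, the member curve of the depletion array lies left of that of all genes over most of its length, with medians of -0.16 and 0.01 (0.16 and 0.34 when centred on ribosomal protein genes); on the transfection array the curve is steeper, with medians of 0.03 and 0.01 (-0.01 and -0.03 when centred on the mean).

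Promoter sequences were searched for motifs known from genes of this kind. The cell cycle genes homology region, or CHR, is the element through which MuvB complexes bind, and the CCAAT box is bound by the trimeric factor NF-Y. RefSeq windows of 300 bases on GRCh38.p14, from 250 before to 50 after the annotated start site, were found for 35 of the 42 members, 5 of which had several windows. The CHR was searched as TTTGAA and TTCGAA and the CCAAT box as CCAAT, each on both strands. Other spellings were not searched, so a window without a CHR match lacks these spellings and may hold another. The stretches below run from 130 bases before the start site to 30 after it, with matches in capitals. They are shown for members among the lowest after depletion (PTTG1, DLGAP5, CCNB1, CCNB2, PLK1, KIF11) and for a pair above 0 (CDCA8, KIF2C).
PTTG1 (chr5:160421725-160421884, plus strand): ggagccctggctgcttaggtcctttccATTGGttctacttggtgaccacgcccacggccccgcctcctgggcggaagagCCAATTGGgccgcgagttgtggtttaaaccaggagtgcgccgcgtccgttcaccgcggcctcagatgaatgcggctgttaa
DLGAP5 (chr14:55191556-55191715, minus strand): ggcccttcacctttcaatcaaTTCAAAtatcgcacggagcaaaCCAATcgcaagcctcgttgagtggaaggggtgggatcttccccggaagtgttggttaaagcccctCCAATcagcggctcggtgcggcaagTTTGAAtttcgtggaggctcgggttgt
CCNB1 (chr5:69167020-69167179, plus strand): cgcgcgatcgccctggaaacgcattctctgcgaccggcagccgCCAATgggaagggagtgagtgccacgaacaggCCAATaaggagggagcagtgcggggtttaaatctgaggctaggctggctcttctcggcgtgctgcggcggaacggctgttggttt
CCNB2 (chr15:59105016-59105175, plus strand): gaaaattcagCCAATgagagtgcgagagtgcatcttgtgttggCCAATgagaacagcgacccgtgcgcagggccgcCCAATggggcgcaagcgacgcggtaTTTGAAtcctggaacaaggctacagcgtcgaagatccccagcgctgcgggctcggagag
PLK1 (chr16:23678759-23678918, plus strand): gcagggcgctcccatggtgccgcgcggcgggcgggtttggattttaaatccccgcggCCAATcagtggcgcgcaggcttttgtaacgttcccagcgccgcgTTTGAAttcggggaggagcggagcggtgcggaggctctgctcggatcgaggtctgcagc
KIF11 (chr10:92593000-92593159, plus strand): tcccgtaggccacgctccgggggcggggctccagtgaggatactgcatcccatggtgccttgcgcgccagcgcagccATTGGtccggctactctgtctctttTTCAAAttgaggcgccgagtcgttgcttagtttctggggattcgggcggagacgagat
CDCA8 (chr1:37692386-37692545, plus strand): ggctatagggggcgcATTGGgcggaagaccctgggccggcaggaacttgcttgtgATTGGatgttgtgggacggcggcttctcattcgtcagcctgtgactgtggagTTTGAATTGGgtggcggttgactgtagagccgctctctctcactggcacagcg
KIF2C (chr1:44739707-44739866, plus strand): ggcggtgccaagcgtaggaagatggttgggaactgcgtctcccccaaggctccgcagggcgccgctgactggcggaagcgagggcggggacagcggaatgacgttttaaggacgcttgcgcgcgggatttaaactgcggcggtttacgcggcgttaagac

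CCNB2 and PLK1 have a CHR match 29 bases before the start site, downstream of their CCAAT boxes, and KIF11 has one 28 bases before it. In CDCA8 the CHR match and a CCAAT box match share a base. The PTTG1 and CCNB1 windows hold CCAAT boxes and neither of the searched CHR spellings, and the KIF2C window holds no match to either motif as searched. Across members, 27 of 35 genes had a CHR match in at least 1 window (77.1%), beside 19.5% of the 27305 genes in the table. A CCAAT box match was present in 29 (82.9%, beside 39.7%), and both motifs in 23 (65.7%, beside 7.85%). By window, a CHR match was in 29 of 44 member windows (65.9%), beside 16.4% of 35116 windows, and a CCAAT box in 77.3%, beside 34.6%. Of the 39 CHR matches in member windows, some of which overlap, 29 lay within 50 bases of the start site (74.4%), beside 27.3% of the 6754 matches in all windows. CENPE joined KIF2C in having no match to either motif as searched.

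Ratios were then set beside the motifs. After depletion, the median was -0.17 over the 24 measured members with a CHR match and -0.22 over the 8 without. For the CCAAT box it was -0.25 over 27 members with a match and 0.07 over 5 without. After transfection the CHR medians were 0.07 over 24 and 0.06 over 8, and those of the CCAAT box 0.04 over 26 with a match and 0.32 over 6 without. Members with a CCAAT box had the lower median on both arrays. Those without were BUB1B, NDC80, NUF2, CENPE, KIF2C and, after transfection, ANLN. Most of these are kinetochore and checkpoint genes, so the motif and the role cannot be told apart. These are descriptions of letters in a window and of single-array ratios, with no test.

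**Figure D3:**
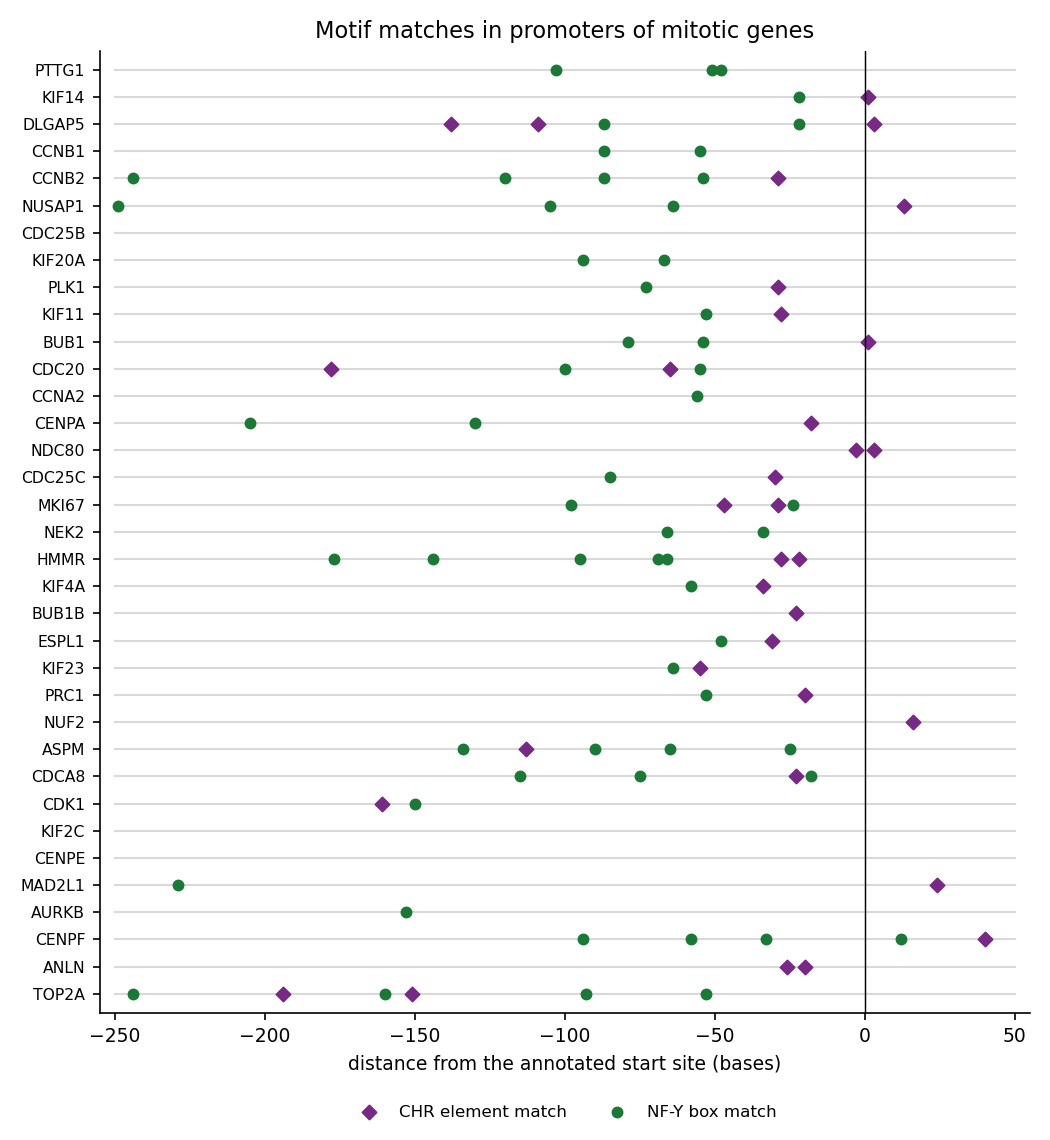
Positions of CHR matches (purple diamonds) and of the CCAAT box, which NF-Y binds (green circles), in the promoter windows of 35 members, by distance of the match's first base from the annotated start site at 0. Genes are ordered from the lowest to the highest log2 ratio on the depletion array as deposited, with CENPF, ANLN and TOP2A, which have none there, last; where a gene has several windows, that of the lowest coordinate is drawn, and matches within 50 bases of the start site are 29 of 39 over all member windows.

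Among the genes of mitotic entry, 6 of 8 lay below 0 after depletion, beside 48.7% of all genes, and 4 of 8 after transfection, beside 49.3%. The B-type cyclins, the partners of CDK1, were 1.62-fold lower for CCNB1 (-0.69) and 1.59-fold lower for CCNB2 (-0.67) in depleted cells. In transfected cells they were at 0.03 and -0.10. CCNA2, the cyclin that acts in S phase and G2, had -0.31 and 0.08. CDK1 itself was above 0 on both arrays, at 0.18 and 0.22. The CDC25 phosphatases remove inhibitory phosphates from CDK1. CDC25B was at -0.57 after depletion and -0.08 after transfection, and CDC25C was at -0.19 and 0.09. PLK1, the Polo-like kinase that activates them, had -0.54 and -0.10. The gene for FOXM1, the transcription factor that drives many of these genes in G2, was at 0.23 and -0.19.

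The Aurora kinases and their partners split after depletion. Aurora A, which builds the spindle poles, and its activator were both below 0 on both arrays, AURKA at -0.44 and -0.24 and TPX2 at -0.58 and -0.36. TPX2 was the lowest member on the transfection array. Aurora B acts at centromeres in the chromosomal passenger complex with survivin and borealin. In depleted cells AURKB was 1.35-fold higher (0.43), the borealin gene CDCA8 was at 0.14, and BIRC5 was 1.76-fold lower (-0.82). Of this complex, AURKB and BIRC5 thus lay towards opposite ends of the member range on this array, with CDCA8 between them. Probe names start with H2 for 4 of the 5 genes of this group, and not for BIRC5. The part of the probe family in this was not tested. In transfected cells AURKB, CDCA8 and BIRC5 lay at -0.06, 0.05 and -0.03.

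Kinetochore and checkpoint genes were closer to 0 after depletion, with a median of -0.05 over the 10 measured and none at least log2 0.5 lower or higher, beside 9.8% and 12.8% of all genes. Of these 10 genes, 9 rested on probes with names starting with H2, whose member median was also -0.05, and the part of the probe family in this was not tested. After transfection the group median was 0.28 and 3 of the 10 were below 0, beside 49.3% of all genes. The checkpoint kinase gene BUB1 had -0.44 after depletion and 0.39 after transfection. The other BUB genes differed from it. BUB1B, which encodes the checkpoint protein BubR1, was at -0.04 and -0.06. The BUB1-binding protein gene BUB3 was at 0.27 and -0.12. MAD2L1, whose product inhibits CDC20, was at 0.26 and 0.25, and TTK, the Mps1 kinase that starts checkpoint signalling, at -0.05 and 0.39. NDC80 and NUF2 encode partners in the microtubule-binding arm of the kinetochore. They had -0.20 and 0.31 for NDC80 and 0.07 and 0.51 for NUF2. CENPE, a kinetochore motor, had 0.23 and 0.32, and the centrosomal kinase gene NEK2 had -0.14 and -0.27.

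CENPA, the histone H3 variant that marks centromeres, was the member with several probes, and its probes are the only repeat measurement within the list. Its 3 probes gave -0.56, -0.10 and -0.09 after depletion, for a mean of -0.25. After transfection they gave 0.15, 0.07 and 0.53, for a mean of 0.25. The sign was shared by the 3 probes on each array, while the size differed by more than the mean itself. For genes with several probes, probe values of one gene had a pooled SD of 0.42 after depletion (566 genes) and 0.45 after transfection (471 genes). After depletion 23 of 39 members lay within that SD of 0, beside 71.0% of all genes. PTTG1 alone of the members was past 2 such SDs, and the share of all genes past that cut was not computed. After transfection 35 of 39 lay within the SD of that array, beside 73.5% of all genes. Each of the other 39 members with a named probe rested on a single probe.

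Genes of anaphase onset spanned the whole member range after depletion. Once the checkpoint is satisfied, CDC20 activates the anaphase-promoting complex, UBE2C feeds it ubiquitin, securin is destroyed and separase, encoded by ESPL1, cuts cohesin. PTTG1 had -1.10 in depleted cells, 115th from the lowest of 10347 genes, and 0.36 in transfected cells. The close paralogs PTTG2 and PTTG3P could share its probe, and this value is uncertain to that extent. CDC20 was at -0.38 and 0.02. UBE2C was at 0.68 in depleted cells and at 0.01 in transfected cells. ESPL1 lay at 0.01 and -0.04, so securin and its target separase did not share a ratio in depleted cells.

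Among motor, spindle and cytokinesis genes, 7 of 11 lay below 0 after depletion, beside 48.7% of all genes, and 5 were at least log2 0.5 lower, beside 9.8%. Probes of other name families than H2 served 7 of the 11. KIF14, a kinesin of the midbody, was at -0.75 after depletion and 0.15 after transfection. KIF11, the motor that pushes spindle poles apart, was at -0.53 and 0.48, and KIF20A, a motor of the central spindle, at -0.57 and 0.28. Other kinesins did not share these values. KIF23, the motor of centralspindlin, was at 0.03 and -0.06, KIF2C, which depolymerises microtubules, at 0.18 and 0.03, and the chromokinesin KIF4A at -0.09 and -0.05. PRC1, which bundles microtubules of the central spindle with KIF4A, was at 0.03 and -0.22. DLGAP5, which stabilises kinetochore microtubule fibres, was 1.67-fold lower in depleted cells (-0.74) and 1.51-fold higher in transfected cells (0.60). The microtubule-binding genes NUSAP1 and HMMR had -0.59 and -0.07, and -0.12 and 0.42. ASPM, a spindle pole gene, was at 0.07 after depletion. MKI67, the proliferation marker Ki-67 that coats mitotic chromosomes, was at -0.16 and -0.19, within the SD between probes on both arrays.

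Since CD26 was lowered in one line and raised in the other, a gene that followed CD26 would be below 0 after depletion and above 0 after transfection. Of the 38 members on both arrays, 14 had these signs (36.8%), beside 22.9% of 8956 genes, and 6 had the reverse (15.8%, beside 24%). Signs were thus opposite in 20 (52.6%), beside 46.9% of all genes. Below 0 on both were 11 (beside 26.5% of all genes) and above 0 on both were 7 (beside 26.6%). With both arrays centred on ribosomal protein genes, 13 had the signs of a gene that follows CD26, beside 11.8% of all genes. At least log2 0.5 in size on both arrays, DLGAP5 was the member with these signs (2.63%), beside 1.36% of all genes.

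The transfection value was above the depletion value in 25 of the 38 members (65.8%), beside 48.3% of all genes, and the median difference was 0.33, beside -0.02 for all genes. It was widest for PTTG1 (1.45), DLGAP5 (1.34), KIF11 (1.01), KIF14 (0.90), KIF20A (0.85) and BUB1 (0.83). At the other end were UBE2C (-0.67), AURKB (-0.50), FOXM1 (-0.42) and BUB3 (-0.39). Across the 38 members the values of the arrays had a Pearson r of -0.11 and a Spearman rho of -0.07, and across all 8956 genes 0.06 and 0.08. The arrays share a dye layout and a probe set, and the cell lines, the RNA and the manipulation differ.

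**Figure D4:**
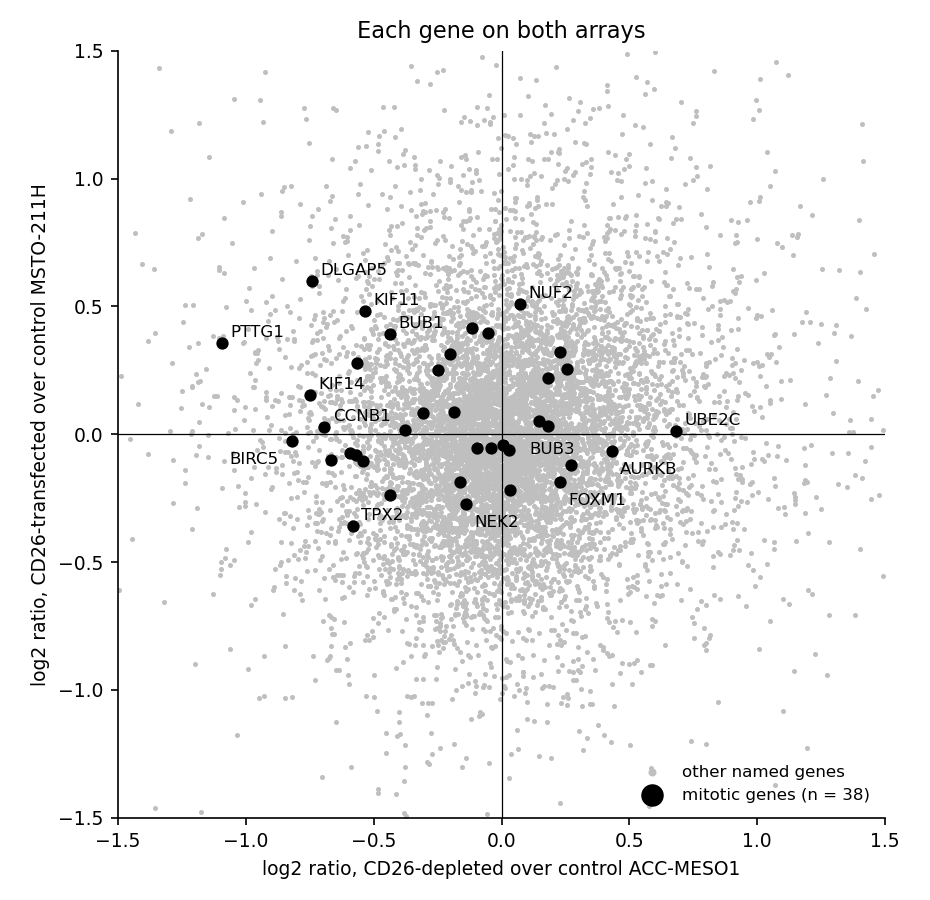
Log2 ratio after CD26 transfection in MSTO-211H cells against log2 ratio after CD26 depletion in ACC-MESO1 cells for 38 members (black) and other named genes (grey, 8735 drawn and 183 outside the axes). As deposited, the upper left region holds 14 members, among them PTTG1, DLGAP5 and KIF11 (13 with both arrays centred on ribosomal protein genes), and the lower right region holds 6.

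The member ratios differed with the kind of probe on the depletion array. Probe names fall into families, and 24 member probes had names starting with H2, with a median of -0.05, while the 12 with names starting with H3 had a median of -0.46. Between them lay the 5 with names starting with opHs, with a median of -0.16. Over all named probes the H2, H3 and opHs medians were 0.04, -0.02 and -0.01. Of the 12 members at least log2 0.5 lower, 5 of 24 came from H2 probes (beside 8.14% of all genes with such a probe) and 7 of 15 from other probes (beside 11.5%). Whether the probe family plays a part in the member ratios was not tested. After transfection the H2, H3 and opHs member medians were 0.04, 0.05 and -0.07.

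The other mitotic genes, a further 185 in 7 lists, had a median closer to that of all genes after depletion. It was -0.04 over 128 measured genes, with 9 at least log2 0.5 lower and 8 higher, beside 9.8% and 12.8% of all genes. Centred on ribosomal protein genes, that median was 0.29, beside 0.34 for all genes. With that centring none was 2-fold lower, beside 0.416% of all genes. On the higher side 4 were past 2-fold (E2F3, MELK, PLK2 and WEE1), beside 7.64%. As deposited, at least 2-fold lower were 3 of them, beside 1.56% of all genes: the kinetochore gene SKA1 (-1.18), CCNA1, the cyclin A of the germ line (-1.19), and the transcription factor gene MYBL1 (-1.08). On the transfection array SKA1 was at 0.21 and CCNA1 at -0.04, and MYBL1 had no value. None of the 128 was 2-fold higher as deposited, beside 3.31% of all genes. Transfection gave a median of 0.01 over 122 genes and none past 2-fold as deposited. At least log2 0.5 lower were 8 and higher 6, beside 9.4% and 13.1% of all genes. With ribosomal centring 1 of the 122, NEK7, was 2-fold higher, beside 6.84% of all genes, and none was 2-fold lower, beside 0.63%.

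By list, the medians after depletion ran from -0.16 for mitotic kinases and G2/M regulators and -0.15 for cell-cycle transcription factors and MuvB genes to 0.09 for condensin and cohesin and 0.09 for the anaphase-promoting complex (0.17, 0.18, 0.41 and 0.41 with ribosomal centring). Centromere and kinetochore genes outside the member list had a median of 0.02 over 24 and ranged from SKA1 to ZWINT (0.46), and the cohesin subunit RAD21 (-0.58) and the mitotic histone kinase HASPIN (0.59) bounded the condensin and cohesin list. PLK2, a Polo-like kinase of stress responses, was at 0.95 after depletion and -0.67 after transfection, the highest and the lowest value of its list. E2F3 was highest of the transcription factors after depletion (0.70), and LMNB1, which encodes lamin B1, lowest of the nuclear envelope genes (-0.74). The centrosome scaffold gene PCNT was at -0.67. After transfection the microtubule plus-end genes CLASP1 and CLASP2 bounded the spindle and centrosome list at -0.81 and 0.56, and TFDP1, the dimer partner of E2F factors, was lowest of the transcription factors at -0.88. The cohesin gene STAG1 was at 0.76 and the kinetochore gene CENPI at 0.70.

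Genes of the preceding stages had other medians than the mitotic genes. DNA replication and G1/S genes had a median of 0.14 over 37 after depletion, with 9 below 0 (24.3%, beside 48.7% of all genes), and of -0.18 after transfection, with 25 below 0 (67.6%, beside 49.3%). They were led by CCND1, the cyclin of early G1, at 1.95 in depleted cells, which was the member of that list past 2-fold. With ribosomal centring the first median keeps its sign and the second lies at 0.05. For CDK inhibitors and p53 targets the median was 0.12 over 16 after depletion, with GADD45A (1.35), the CDK inhibitor gene CDKN1A (1.28) and SESN2 (1.02) past 2-fold, beside 3.31% of all genes. In the same list CDKN2C, another CDK inhibitor gene, was lowest at -0.95. At log2 0.5 the list had 4 of 16 higher and 3 lower, beside 12.8% and 9.8% of all genes. After transfection its median was -0.35 over 14, and TP53I3 (1.26) was past 2-fold, beside 4.09% of all genes. CDKN1A, which encodes p21, was at -0.42 in transfected cells.

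**Figure D5:**
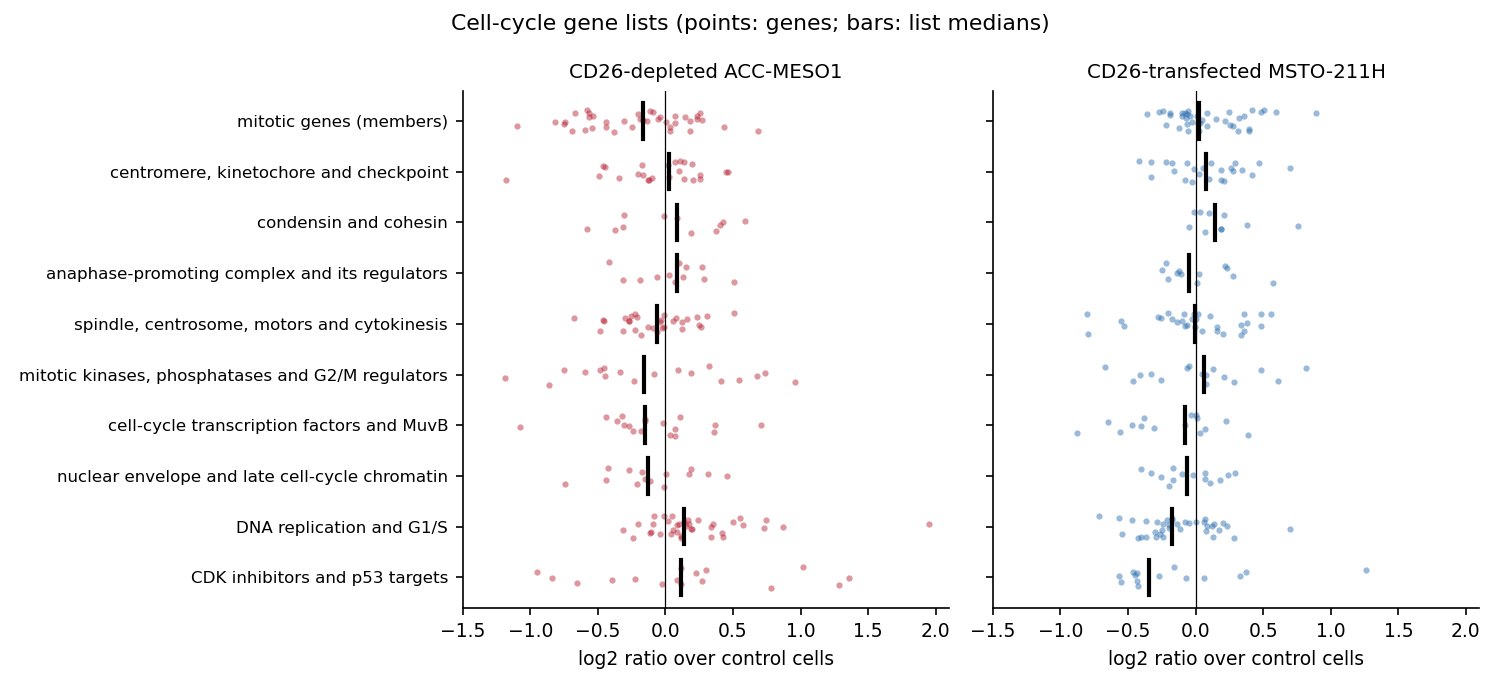
Log2 ratios of the member list, 7 lists of other mitotic genes, and the replication and CDK inhibitor lists on each array as deposited; each point is a gene and each black bar a list median. On the depletion array the member median is -0.16 and that of DNA replication and G1/S genes 0.14 (both above 0 when centred on ribosomal protein genes), and on the transfection array they are 0.03 and -0.18 (both above 0 with that centring).

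Markers of other cell types gave no level, since each array holds ratios. Beside the member values, their medians after depletion were -0.03 over 8 fibroblast, 0.08 over 2 lymphocyte, 0.47 over 3 myeloid and -0.07 over 6 endothelial genes, and after transfection -0.49 over 6, 0.02 over 3, -0.30 over 3 and -0.42 over 5. MFAP5 (1.96, depletion) and CD3E (1.88, transfection) were past 2-fold. Mesothelial markers had medians of 0.03 over 12 and 0.09 over 11, with ITLN1 (1.38) past 2-fold after depletion and KRT18 (-1.16) and MSLN (-1.31) after transfection. Their part in the mitotic gene ratios was not tested.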

How the data were processed

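The authors' deposited table holds normalized log2 ratios of manipulated over control cells for 24267 probes on 2 two-colour arrays, with the direction given per the labels' descriptions. After depletion 19622 probes had a value and after transfection 17737, and each array had a median of 0. The sources used here do not give the background correction, the normalization, the scanner or the rule for missing values. No intensities were used, so dim probes could not be filtered.

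Platform annotation named 13395 probes. Where a single gene of the RefSeq GRCh38.p14 table claimed an older symbol, its current one was used, and CDC2, STK6 and DLG7 were read as CDK1, AURKA and DLGAP5. The 2 probes listed as AIM1, an older name of AURKB and of another gene, were not counted. Probes of a gene were averaged (Python 3.11.15, pandas 2.3.3, numpy 2.4.6). With 1 array per group there is no test, and a gene was called past 2-fold at a log2 ratio of 1 in size, with 0.5 and 1.5 as alternatives. Other alternatives were the centre of the array (mean, ribosomal protein genes, each chromosome), a common spread, the probe kept per gene, genes on both arrays, current symbols alone and, added after the data were seen, the probe name family. Every member is named, and of other lists the genes past 2-fold or at the ends. The members and lists were chosen with earlier results of these data known. The code of the summaries was checked on gene lists drawn from these data with a known shift added.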

Additional observations from a re-analysis of the deposited data

How the results depend on the processing

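Moving the centre of an array shifts all genes alike, so the gap of 0.18 between the depletion medians of members and of all genes cannot change with it. That gap was 0.09 with H2 probes alone and 0.36 with the other probes alone, a split added after the data were seen. Centring on ribosomal protein genes shifted all genes by 0.33 and 0.22. After depletion the members' median was then 0.16, and the other mitotic genes' median was 0.29. At least 2-fold higher was 1 member (UBE2C, 1.01), beside 7.64% of all genes, and 0 were lower (PTTG1, -0.77), beside 0.416%. At least log2 0.5 higher were 8, beside 33.4%, 1 was lower, beside 2.95%, and 15 were below 0, beside 17.8%. After transfection 1 member was then 2-fold higher (ANLN, 1.11; beside 6.84% of all genes), 11 were at least log2 0.5 higher (beside 25.1%) and 3 were below 0 (beside 26.4%). With thresholds of log2 0.5 and 1.5 in place of 2-fold, 12 and 0 members were lower after depletion, beside 9.8% and 0.213% of all genes. At 0.5 there was 1 higher after depletion, beside 12.8%, and 3 after transfection, beside 13.1%. With H2 probes alone, which cover 24 members, 0 were 2-fold lower after depletion, beside 1.27% of all genes with such a probe. At least log2 0.5 lower were 5, beside 8.14%. Below 0 were 13 after depletion, beside 45.5%, and 10 after transfection, beside 50.04%. Lower then higher were 8, beside 21.4%. With the other probes, which cover 15, 7 were at least log2 0.5 lower after depletion, beside 11.5% of all genes with such a probe. On that array 0 were at least log2 0.5 higher, beside 11.4%, and 12 were below 0, beside 51.8%. After transfection 1 was at least log2 0.5 higher, beside 14.4%, and 7 were below 0, beside 48.8%. Lower then higher were 6 of the 14 on both arrays, beside 23.98%. These splits cover fewer members, and whether the probe family plays a part in their counts was not tested. Centred on the mean, the transfection medians were -0.013 for members and -0.029 for other mitotic genes. Centring each chromosome put ANLN past 2-fold (1.06, 1 member, beside 3.92% of all genes) and DLGAP5 at 0.39. Current symbols alone left 1 of 35 members at least log2 0.5 higher after transfection, beside 13.04% of all genes. DLGAP5 and NUF2, which stand under older symbols, drop out there. The other 162 of 191 recomputed summaries stayed within 1.5 times the reported count, or on the same side of 0 and within the SD between probes. That SD (0.42 after depletion, 0.45 after transfection) is wider than the gap of 0.18, so the rule passes changes as large as the gap. The tally also holds gaps that a shift of the centre cannot change. No paired analysis was possible because each comparison holds a single array, and signal over background, which limits ratios of dim probes, is unknown.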
